A study of Mus musculus with 9 samples.

Results

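The RNA components of the mitochondrial ribosome, 12S and 16S ribosomal RNA (rRNA), are followed here through 9 ovary libraries. They are 2 rows of a table of 40807 transcript rows, ENSRNOT00000040038 (called the 12S row) and ENSRNOT00000069133 (called the 16S row). Both were chosen by their place in the table and not by their values, though with earlier results of these data known. The study measured poly(A) RNA of ovary by paired-end RNA sequencing in 3 groups of 3 libraries, from animals that the labels give as Balb/c mice. Blank is the reference group, POF is a model of premature ovarian failure (early loss of ovarian function), and POF+BSHXF is that model treated with BSHXF (Bushen Huoxue Fang), a mixture of herbs from Chinese medicine. No label or protocol states the animals' age, what induced the ovarian failure, or how much of the formula was given and for how long. The comparisons ask whether either rRNA differed in the model and whether it differed when the formula was given.

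Mitochondria make a few proteins of the respiratory chain on ribosomes of their own. The 12S rRNA is the RNA of the small subunit, which holds and decodes the messenger RNA, and the 16S rRNA is the RNA of the large subunit, which forms peptide bonds. Both genes lie next to each other on the mitochondrial genome, with a tRNA gene before, between and after them, and both are cut from the same long precursor when these tRNAs are released. Oocytes carry many mitochondria, and steroid-producing ovarian cells use mitochondria to start steroid synthesis. Mitochondrial rRNAs carry only short A tails, and the libraries were made from poly(A) RNA, so the values give the part of each rRNA that passed this selection, not its amount in the cell. In whole tissue, fewer cells of a type and less RNA per cell cannot be told apart.

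The names 12S and 16S rest on row order. The first 37 rows of the table are called the block here. That length was set to the number of genes in a vertebrate mitochondrial genome, and where the block ends was not checked. The members stand at rows 2 and 4 of the block. In the mouse mitochondrial gene order of GENCODE M21, these places hold the rRNA genes, beside 13 places for mRNAs and 22 for tRNAs. Measured levels followed this pattern. The 15 rows with the highest mean count in the block were the 15 at rRNA or mRNA places. The lowest count of any of them in any library was 66530, whereas the highest at a tRNA place was 5653. The order separates long genes from tRNA genes in this way but does not by itself tell an rRNA from an mRNA. All 40807 IDs carry the rat prefix ENSRNOT although the labels say mouse. Neither member ID occurs in the mouse gene lists at hand, and the table itself gives no gene names. Whether rat RNA was sequenced, or mouse reads were assigned to rat transcripts, was not settled, so no sequence or coordinate of the members is given. For the same reason the ovary's marker genes, the nuclear genes for mitochondrial ribosomal proteins and the factors that modify rRNA could not be looked up.

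Library totals ran from 41231313 to 58392086 estimated counts, and the 37-row block took between 22.2% and 32.2% of them. On the first principal component of all tested transcripts, POF replicate 1 and POF+BSHXF replicate 3 lay together at the far end from the Blank libraries. POF replicate 3 (-53.6) and POF+BSHXF replicate 1 (-76.2) lay on the side of the Blank libraries (-117.5, -69.4 and -79.7). Levels below are CPM, the count of a row scaled to its library total after TMM adjustment, and groups are summarised by the mean and the SD over their 3 libraries. The members had between 66530 and 212510 counts per library. Even if each sequenced fragment entered the table as 4 counts, counting error would be at most 0.775% of a value, so the spread between libraries set the precision.

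The 12S row stood lowest in the model, but its difference from Blank did not pass the test. Its level was 3005, 2023 and 2482 CPM in Blank replicates 1 to 3. In POF it was 1425, 1587 and 2416 CPM. In POF+BSHXF it was 1784, 2603 and 2966 CPM. POF replicates 1 and 2 were the lowest of all 9 libraries, while POF replicate 3 lay between Blank replicates 2 and 3, so the groups overlapped. The mean was 2503 ± 492 CPM for Blank (SD, n = 3), 1809 ± 531 CPM for POF and 2451 ± 605 CPM once the formula was given. In the order Blank, POF+BSHXF, POF, the libraries of each neighbouring pair of groups overlapped.

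The 16S row varied more, above all within the model. Its level was 3708, 2047 and 2686 CPM in Blank replicates 1 to 3. In POF it was 1339, 1795 and 3789.7 CPM, which holds both the lowest values and the highest value of the 9 libraries. In POF+BSHXF it was 2409, 3678 and 3526 CPM. The highest POF library was 2.83 times the lowest, against 1.81 times in Blank and 1.53 times in POF+BSHXF. The mean was 2814 ± 838 CPM for Blank (SD, n = 3), 2308 ± 1303 CPM for POF and 3204 ± 693 CPM once the formula was given, with all 3 groups overlapping.

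**Figure D1:**
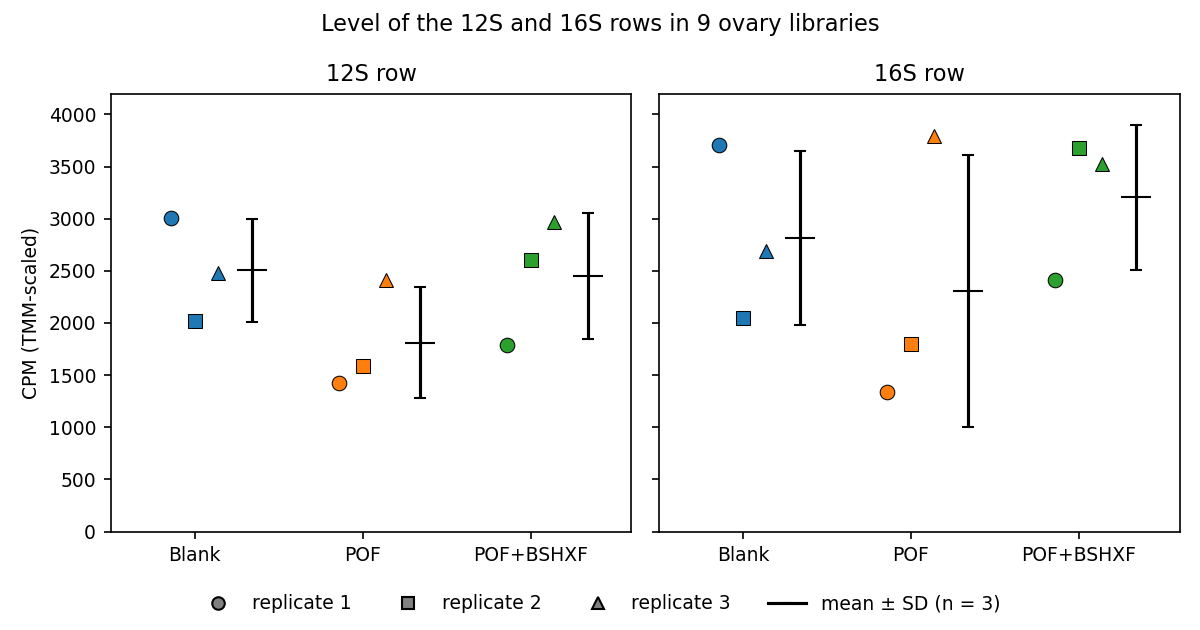
Level in CPM of the 12S row (left) and the 16S row (right) in each library, by group; marker shape gives the replicate number, and the black bar the mean ± SD of 3 libraries. For both rows POF replicates 1 and 2 are the lowest of the 9 libraries, and POF replicate 3 (2416 and 3789.7 CPM) lies among or above the Blank libraries.

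In the model against Blank, the log2 fold change was -0.47 ± 0.27 (SE) for the 12S row, with a 95% interval of -1.10 to 0.16 and an edgeR adjusted p of 0.667. For the 16S row it was -0.29 ± 0.41, with an interval of -1.24 to 0.67 and an edgeR adjusted p of 0.914. Thus 0 of the 2 rows passed the threshold in edgeR, beside 0.00965% of the 20723 transcripts tested. DESeq2 and limma-voom also called 0 of 2, beside 480 and 1 of the 20723 transcripts. The unadjusted edgeR p was 0.123 for 12S and 0.506 for 16S, so 0 of 2 were below 0.05 there too, beside 7.83% of all transcripts. The groups overlapped for both rows, whereas they did not overlap for 7.34% of transcripts that were lower in POF and 8.68% that were higher. The median log2 fold change of all transcripts was 0.01. The intervals reach a decrease of more than 1 log2 unit for both rows and an increase of 0.16 for 12S and 0.67 for 16S, so these 6 libraries do not show that the rRNAs were alike.

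The size of these differences depended on several single libraries, and was largest without POF replicate 3. Without it the log2 fold change was -0.73 for the 12S row, at an unadjusted p of 0.0259 and an edgeR adjusted p of 0.423. For the 16S row it was -0.85, at an unadjusted p of 0.0309 and the same adjusted p. In that fit 11.4% of all transcripts had an unadjusted p below 0.05. Without POF replicate 1 the 12S row gave -0.32 and the 16S row -0.01. Without Blank replicate 1, the highest Blank library, they gave -0.32 and -0.03. Neither row passed the threshold with any library left out.

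With the formula, both rows had higher means than in the model without it, but the libraries overlapped and neither row passed the test. The log2 fold change of POF+BSHXF against POF was 0.44 ± 0.27 (SE) for the 12S row, with a 95% interval of -0.19 to 1.07 and an edgeR adjusted p of 1. For the 16S row it was 0.47 ± 0.41, with an interval of -0.48 to 1.43 and an edgeR adjusted p of 1. In edgeR, DESeq2 and limma-voom 0 of the 2 rows passed the threshold, beside 0.00965% of transcripts in edgeR. Of 20723 transcripts DESeq2 called 113 and limma-voom 1. The unadjusted edgeR p was 0.146 and 0.283, where 2.74% of all transcripts were below 0.05. Groups overlapped for both rows, and they did not overlap for 3.42% of transcripts that were higher and 2.94% that were lower with the formula. POF libraries enter this comparison and the one above with opposite signs, so the same POF libraries move both values. Without POF replicate 3 the 12S row differed by 0.70 (unadjusted p = 0.0305) and the 16S row by 1.03 (unadjusted p = 0.014), both at an edgeR adjusted p of 1, where 4.22% of all transcripts had an unadjusted p below 0.05. With POF replicate 1 and POF+BSHXF replicate 3 left out together, the differences were 0.13 and 0.12.

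POF+BSHXF against Blank gave no call either. The 12S row differed by -0.03 ± 0.27 on the log2 scale (95% interval -0.66 to 0.60, edgeR adjusted p = 1) and the 16S row by 0.19 ± 0.41 (interval -0.77 to 1.14, edgeR adjusted p = 1). Again 0 of 2 passed in edgeR, DESeq2 or limma-voom, beside 0.00965% of transcripts in edgeR. Of 20723 transcripts DESeq2 called 371 and limma-voom 3. At unadjusted edgeR p-values of 0.914 and 0.66, 0 of 2 were below 0.05, beside 5.85% of transcripts. Groups overlapped for both rows, and they did not overlap for 6.04% of transcripts that were higher and 6.03% that were lower in POF+BSHXF. The sign for 12S turned without Blank replicate 1 (0.11) or without POF+BSHXF replicate 1 (0.15). For 16S it turned without Blank replicate 2 (-0.0013).

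The balance of the rRNAs was then compared inside each library, where scaling plays no part. The 16S row had 1.23, 1.01 and 1.08 times the counts of the 12S row in Blank replicates 1 to 3. The POF libraries gave ratios of 0.940, 1.13 and 1.57. Those with the formula gave 1.35, 1.41 and 1.19. The 16S row thus had more counts in 8 of 9 libraries, and POF replicate 1 was the exception. The extremes were both POF libraries. The mean ratio was 1.11 ± 0.113 for Blank (SD, n = 3), 1.21 ± 0.322 for POF and 1.32 ± 0.116 once the formula was given.

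On the log2 scale the mean ratio was higher by 0.10 in POF than in Blank (two-sided exact permutation p = 0.8). It was higher by 0.15 in POF+BSHXF than in POF (exact permutation p = 0.6). Between POF+BSHXF and Blank it differed by 0.25 (exact permutation p = 0.2), and the groups overlapped only through POF+BSHXF replicate 3 (1.19) and Blank replicate 1 (1.23). With 3 libraries against 3 the smallest p this test allows is 0.1, so it could not reach 0.05 here. Across the 3 comparisons of the ratio, none reached that smallest value.

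**Figure D2:**
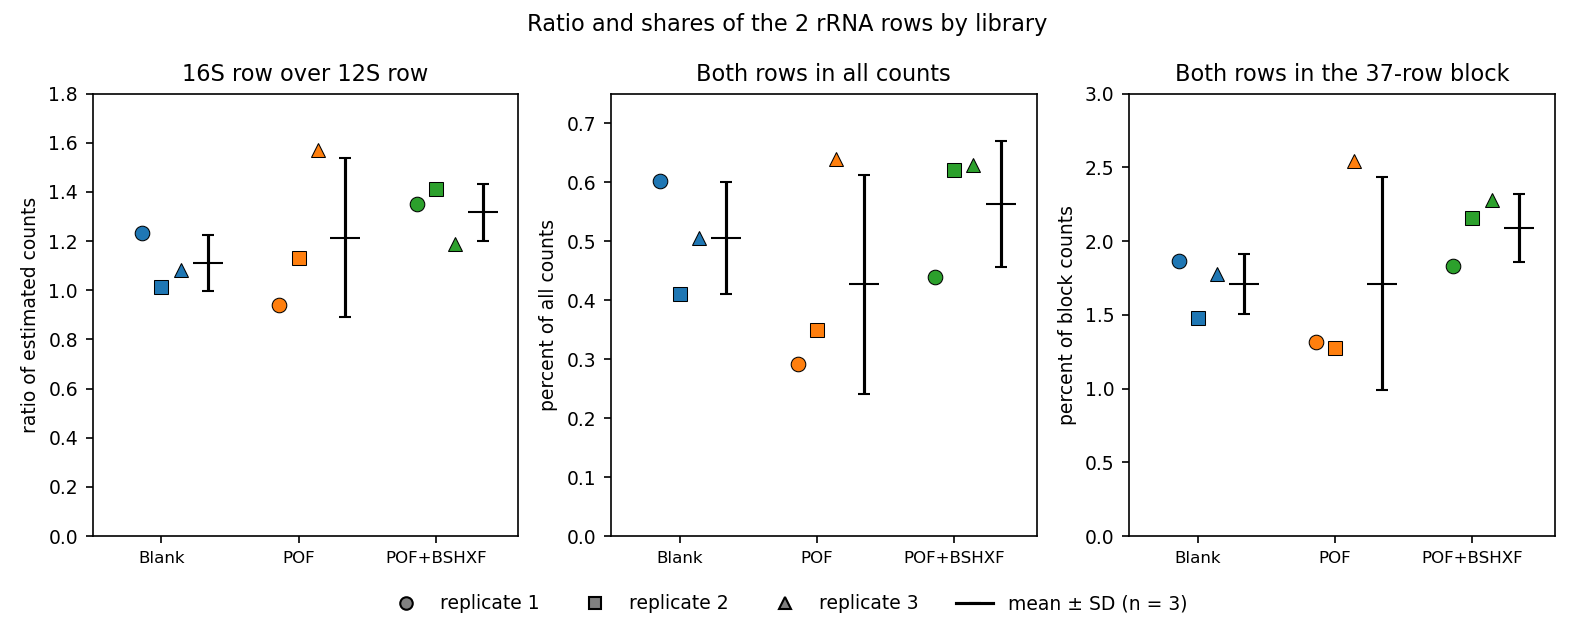
Left, counts of the 16S row over the 12S row; middle, both rows as percent of all counts; right, both rows as percent of the 37-row block, for each library by group, with the mean ± SD of 3 libraries in black. In each panel POF replicate 3 is the highest library (1.57, 0.638% and 2.54%), and the POF group has the widest spread.

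Together the rRNA rows took well under 1% of each library. The share of all counts was 0.601%, 0.410% and 0.505% in Blank replicates 1 to 3. The POF libraries gave 0.292%, 0.349% and 0.638%. Those with the formula gave 0.439%, 0.620% and 0.629%. POF again held the lowest libraries and the highest one. The mean share was 0.505% ± 0.0955 for Blank (SD, n = 3), 0.426% ± 0.186 for POF and 0.563% ± 0.107 once the formula was given. By two-sided exact permutation tests, the comparison of POF with Blank gave p = 0.6, and that of POF+BSHXF gave p = 0.4 with POF and p = 0.5 with Blank, where 0.1 is the smallest p possible. The differences depended on single libraries. With 1 of the 6 libraries left out, POF less Blank ran from -0.185 (without POF replicate 3) to -0.0114 percentage points (without POF replicate 1), around -0.0786 with all 6. POF+BSHXF less POF ran from 0.0689 (without POF replicate 1) to 0.242 (without POF replicate 3), around 0.136. POF+BSHXF less Blank ran from 0.00982 (without Blank replicate 2) to 0.119 (without POF+BSHXF replicate 1), around 0.0574.

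Within the 37-row block the mean rRNA share was higher with the formula than in the other groups, but all groups overlapped. The Blank libraries gave 1.86%, 1.48% and 1.78%. The POF libraries gave 1.31%, 1.28% and 2.54%, and those with the formula 1.83%, 2.16% and 2.28%. The mean was 1.71% ± 0.203 in Blank and 1.71% ± 0.721 in POF, a difference of 0.0044 percentage points (exact permutation p = 1). POF+BSHXF had a mean of 2.09% ± 0.232, higher than POF by 0.377 percentage points (exact permutation p = 0.4) and higher than Blank by 0.381 (exact permutation p = 0.2). The lowest POF+BSHXF library (1.83%) lay just below the highest Blank library (1.86%). Without POF replicate 3 the difference of POF from Blank was -0.412 percentage points. That of POF+BSHXF from POF was then 0.793, at an exact permutation p of 0.1, the smallest the test allows. Leaving out POF replicate 1 instead gave 0.178, and leaving out POF replicate 2 gave 0.160. With 1 library left out, POF+BSHXF less Blank ran from 0.267 (without Blank replicate 2) to 0.511 (without POF+BSHXF replicate 1).

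The 16S level of POF replicate 3, 3789.7 CPM, was close to those of Blank replicate 1 (3708 CPM) and POF+BSHXF replicate 2 (3678 CPM). At another row of the block this library stood apart. ENSRNOT00000046108, at row 22, an mRNA place, had 1628374 counts in POF replicate 3 and between 300087 and 486771 in the other 8 libraries. This row was singled out after its values were seen. Leaving it out of the block moved the rRNA share of POF replicate 3 from 2.54% to 2.89%. The difference of POF+BSHXF from POF was then 0.293 percentage points (exact permutation p = 0.7). That of POF from Blank was 0.0947, and that of POF+BSHXF from Blank 0.388 (exact permutation p = 0.2). Whether the 16S value of POF replicate 3, high within its group, and its high value at row 22 have a common source was not tested.

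The rRNA rows had the lowest levels among the long genes of the block, by mean count and also per base. The libraries were made from poly(A) RNA and rRNA tails are short, so this order need not hold for amounts in the cell. Using the lengths of the mouse genes at the same places, 955 bases for 12S and 1582 for 16S in GENCODE M21, the 12S row had a median of 2529 CPM per kilobase over the 9 libraries, from 1492 to 3147. The 16S row had a median of 1698 CPM per kilobase, from 846 to 2396. Per base the 16S row was below the 12S row in each of the 9 libraries, at 0.567 to 0.947 of its level with a median of 0.718. The order of counts, in which 16S was ahead in 8 libraries, is therefore the opposite of the order per base. These lengths are mouse lengths and the IDs have a rat prefix, so the per-base values are approximate.

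At the 13 mRNA places the median level per kilobase was 5.77 to 12.1 times that of the 12S row and 6.83 to 17.7 times that of the 16S row, library by library. Ranked per kilobase among the 15 long genes, 12S was at place 14 and 16S at place 15 in each of the 9 libraries. In plain counts the 13 mRNA-place rows together held 38.3 to 77.2 times the counts of both rRNA rows. The 3 rows with the highest mean count were ENSRNOT00000050156, ENSRNOT00000049683 and ENSRNOT00000043693, all at mRNA places, with mean levels of 88742, 33994 and 29323 CPM. The 12S row averaged 2254 CPM and the 16S row 2775 CPM on the same scale, without regard to length.

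The tRNA-place rows around the rRNAs had few counts. The row before 12S, ENSRNOT00000041720, had 9 to 27 counts per library, and the row between the members, ENSRNOT00000045072, had 36 to 122. The latter came to 0.0487% to 0.0963% of the 12S counts. The row after 16S, ENSRNOT00000049156, had 1114 to 2772 counts, or 1.03% to 2.26% of the 16S counts. In counts, each of these 3 rows thus stayed far below the rRNA row beside it in every library. The mouse genes at these tRNA places have only 68, 69 and 75 bases, however. Per kilobase of mouse length, their mean levels were 4.98, 23.9 and 549 CPM, beside 2361 for 12S and 1754 for 16S.

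**Figure D3:**
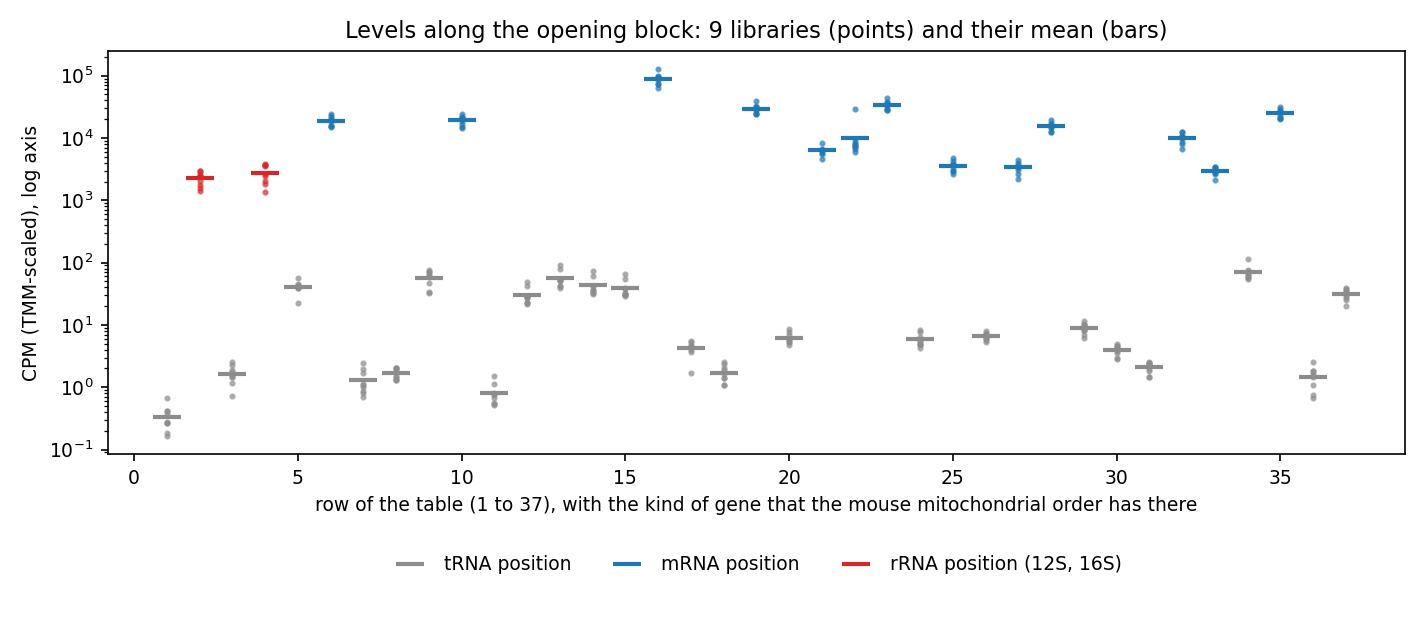
Level in CPM (log axis) of each of the 37 rows that open the table, in table order; small points are the 9 libraries, bars their mean, and colour the kind of gene that the mouse order has at that place. The 12S and 16S rows (means of 2254 and 2775 CPM) lie above every tRNA-place row and below each of the 13 mRNA-place rows in mean level.

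Across libraries the rRNA rows varied more than most mRNA-place rows. Of the tRNA-place rows, whose counts are far lower, most varied more than 12S but only a minority more than 16S. From the lowest to the highest of the 9 libraries the 12S row varied 2.11-fold and the 16S row 2.83-fold. Of the 13 mRNA-place rows, 12 varied between 1.53-fold and 2.02-fold, and the exception was row 22, at 4.81-fold. The 22 tRNA-place rows varied between 1.53-fold and 4.12-fold, 14 of them more than 12S and 6 more than 16S. The biological coefficient of variation that edgeR estimated was 0.276 for the 12S row and 0.374 for the 16S row. Both were below the common value of 0.766 for all transcripts, which is not matched for count. In POF against Blank the SE of the log2 fold change was 0.27 for 12S and 0.41 for 16S. Over the 13 mRNA-place rows its median was 0.17.

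The direction of the differences can be set beside that of the mRNA-place rows. In POF against Blank 12 of these 13 rows had a negative log2 fold change, with a median of -0.36 and a range of -0.53 to 0.70, beside -0.47 for 12S and -0.29 for 16S. In edgeR 0 of the 13 passed the threshold (lowest adjusted p = 0.623), beside 0.00965% of all transcripts. Of the 13 rows, 5 had an unadjusted edgeR p below 0.05, beside 7.83% of all transcripts. Among all transcripts 51.3% had a positive log2 fold change. Of the 22 tRNA-place rows 17 were negative in this comparison, with a median of -0.32 and a range of -1.20 to 0.25. In POF+BSHXF against POF 11 of the 13 mRNA-place rows were positive, beside 51.0% of all transcripts. These 13 rows had a median of 0.21 and a range of -1.01 to 0.34. Both rRNA rows, at 0.44 and 0.47, were above that range but within that of the 22 tRNA-place rows, of which 21 were positive, with a median of 0.36 and a range of -0.20 to 0.70. Of these tRNA-place rows 10 were above 12S and 8 above 16S. In POF+BSHXF against Blank all 13 mRNA-place rows were negative, from -0.31 to -0.03 with a median of -0.20. The 12S row was at -0.03 and the 16S row at 0.19. Of the 22 tRNA-place rows 10 were positive here, and 7 were above 16S. Their range was -0.55 to 0.74. Among all transcripts 50.9% were positive in this comparison. The latter 2 comparisons had 0 of 13 mRNA-place rows past the edgeR threshold, beside 0.00965% of all transcripts in each. At an unadjusted edgeR p below 0.05 there were 0 of 13 in both, beside 2.74% and 5.85% of all transcripts. These comparisons share libraries, and rows of 1 genome are not independent. Whether the rRNA rows changed differently from the mRNA-place rows was not tested here beyond the block share above, whose test cannot pass 0.05 with 3 libraries against 3.

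**Figure D4:**
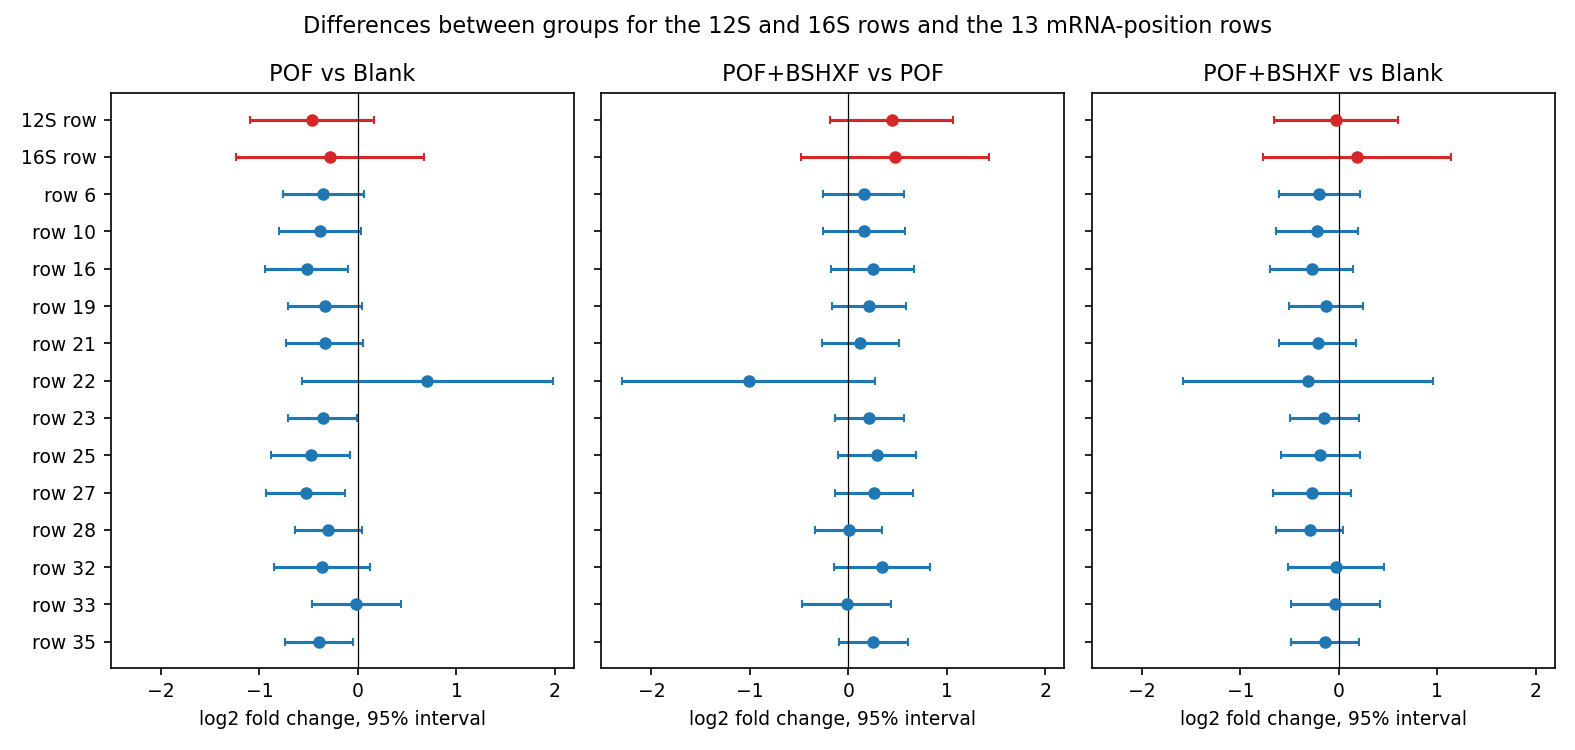
Log2 fold change with its 95% interval (edgeR) for the 12S and 16S rows (red) and the 13 mRNA-place rows of the block (blue), named by their row in the table, in the 3 comparisons. The intervals of both rRNA rows include 0 in each comparison and are wider than those of 12 of the 13 mRNA-place rows, row 22 being the exception.

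The members followed each other closely. As a measure of likeness, the Pearson correlation of log2 CPM over the 9 libraries was 0.920 between 12S and 16S, given as a description, since both values of a library share its depth and scaling. Among 20722 transcripts ranked by likeness to 12S, the 16S row was at rank 32, and 12S was at rank 27 for 16S. The transcripts most like 12S were ENSRNOT00000010229, ENSRNOT00000003658 and ENSRNOT00000059541, with correlations of 0.967, 0.966 and 0.965. Those most like 16S were ENSRNOT00000092169, ENSRNOT00000001894 and ENSRNOT00000027345, with 0.987, 0.976 and 0.970. None of these 6 lies in the 37-row block, and their genes are not named by the files. Their mean levels ran from 45.5 to 367 CPM, far below those of the members. Of the other rows of the block, the nearest to 12S was ENSRNOT00000042098 at row 35, an mRNA place (correlation 0.791, rank 370). The nearest to 16S was ENSRNOT00000045072, the tRNA-place row between the members (0.633, rank 1417).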

How the data were processed

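The deposited table has whole numbers, which were read as estimated counts that the authors had not normalized. StringTie 1.3.4d is among the tools in the submitters' processing notes, and 29.5% of values from 1 to 40 were multiples of 4; whether they are plain read tallies was not tested. The notes also list HISAT2 2.0.4, cutadapt 1.9, DESeq2 and edgeR, without saying what each did. Genome build, annotation, the counting step and the handling of reads shared with nuclear copies of mitochondrial sequence: not given in the sources used here. Libraries were built with strand marking (dUTP), per the labels' protocols. Groups came from the treatment label, and columns were assigned by group name and number, with the Treat columns assigned to the BSHXF samples.

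Transcripts were kept by filterByExpr (minimum count 10, minimum total 15), which left 20723 of 40807. Both members and the other 35 rows of the block passed. All 9 libraries entered 1 edgeR 4.0.16 quasi-likelihood fit (R 4.3.3, TMM, robust dispersion, 6 residual degrees of freedom), tested on simulated data, with Benjamini-Hochberg adjustment over all 20723 and a threshold of 0.05. DESeq2 1.42.0 and limma-voom (limma 3.58.1) were alternatives. Ratios and shares were compared by exact permutation tests. Likeness was computed on log2 CPM (prior count 2), and the 3 most correlated transcripts were named by rule, as were the rows beside the members and the 3 block rows with the highest mean count. The members and lists were chosen with earlier results of these data known. The labels do not tie libraries to separate animals, so the p-values rest on a spread between libraries that may be technical.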

Additional observations from a re-analysis of the deposited data

How the results depend on the processing

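Neither rRNA row passed the threshold in any of 19 alternatives per comparison. For POF against Blank the edgeR, DESeq2 or limma-voom adjusted p ran from 0.423 to 0.963 for 12S and from 0.423 to 1 for 16S; in the other comparisons it was at least 0.912. With each of the 9 libraries left out in turn, the log2 fold change of POF against Blank ran from -0.73 to -0.32 for 12S and from -0.85 to -0.01 for 16S. POF+BSHXF against POF ran from 0.28 to 0.70 and from 0.20 to 1.03. POF+BSHXF against Blank ran from -0.19 to 0.15 for 12S and from -0.0013 to 0.43 for 16S, so both changed sign around 0. Leaving out a library that was not compared acts through the shared spread, filter and scaling.

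In a fit with a replicate block (the number in the labels), the 3 comparisons (POF against Blank, POF+BSHXF against POF, POF+BSHXF against Blank) gave -0.51, 0.45 and -0.06 for 12S and -0.40, 0.56 and 0.16 for 16S. Differences of ratios and shares do not change under the block by construction, and the exact sign-flip permutation test cannot go below p = 0.25. Deviations from the group means gave no sign of pairing by number, with 0 of 9 same-numbered pairs correlated above 0.1 (range -0.284 to 0.0272). The highest correlations were between unlike numbers. They were 0.272 for POF replicate 1 with POF+BSHXF replicate 3, and 0.260 for POF replicate 3 with POF+BSHXF replicate 1.

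Over all transcripts edgeR called 2, 2 and 2, and 0, 0 and 0 under the replicate block (878, 382 and 554 at an unadjusted p below 0.05), DESeq2 480, 113 and 371, limma-voom 1, 1 and 3, a fit of only the groups compared 9, 0 and 2, and 3 to 10, 0 to 9 and 0 to 10 with 1 library left out. With POF replicate 1 and POF+BSHXF replicate 3 left out together it called 11, 15 and 10, and with counts divided by 4 it called 3, 3 and 3, both chosen after the data were seen. Of the ratio and the shares, each alternative moved the difference by less than the spread between libraries. With 3 libraries per group, leaving out 1 cannot move it further than that, so this is no sign of stability. The log2 ratio of 16S to 12S changed sign with 1 library left out, to as low as -0.10 (POF less Blank) and -0.02 (POF+BSHXF less POF). The block share of POF against Blank ran from -0.412 to 0.222 percentage points. Counting error, at most 0.775% of a value, was small beside the spread between libraries.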
